A study of Homo sapiens with 6 samples.

Results

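The distal end of chromosome 12 was examined in H526 cells, which come from a small cell lung cancer. They were set against H526 cells grown resistant to onvansertib, an inhibitor of the mitotic kinase PLK1. The region runs from 103.8 Mb of GRCh38 to the end of the chromosome and holds 796 rows of the expression table. Of these, 404 were at 0 in all 6 libraries, 157 were above 0 with a mean under 10, and 235 averaged at least 10 across libraries and were taken as members, out of 16347 genes that passed this minimum in the whole table. The region was chosen on the fold changes of the same 6 libraries that are described here, and so was the stretch from 110.3 to 117.2 Mb that is set against its flanks. The differences between the groups are therefore a description of the selected genes, and no test is drawn from them. The lowest means among the members were 10.1 for *SELPLG*, 10.6 for *NOS1* and 10.6 for *TMEM132D*, and the genes just under the minimum included *CFAP251* at 9.69 and *RAD9B* at 9.37.

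The parental group holds libraries 1, 2 and 3 of parental H526 cells. The resistant group holds libraries 7, 8 and 9 of H526 cells taken through onvansertib from 10 nM to 75 nM over a year or more, each dose raised when growth had returned to normal. RNA was harvested at 3 separate times, and the samples are described as matched, but which parental library goes with which resistant library is not stated. Both groups come from the same line, and whether the resistant cells are 1 clone is not stated, so drug exposure, time in culture and any selection of cells cannot be told apart. No separate selections for resistance are described, so the 3 resistant libraries are read as repeat harvests and not as independent selections. A p-value measures the spread between these harvests. In bulk RNA of this kind, fewer cells that express a gene and less RNA per cell cannot be told apart either. Only RNA was measured, and the copy number of the region was not analysed here.

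The parental libraries held 25758431 to 28510957 reads, more than the 22378013 to 23263007 of the resistant ones. *POU2F3*, the tuft cell factor that marks a subtype of small cell lung cancer, was between 24511 and 26810 in parental and between 26844 and 27873 in resistant libraries. The neuroendocrine genes *INSM1*, *CHGA* and *SYP* were lower in every resistant library, with *INSM1* between 5626 and 6729 in parental and between 1183 and 1385 in resistant libraries. Of 6 markers of other cells, the collagen genes *COL1A1* and *COL1A2* made up nearly all of a summed level of 129.9 to 177.5 in parental and 369 to 587 in resistant libraries, *PECAM1* was at 0 in the parental and *PTPRC* in the resistant libraries, and *DCN* did not pass 3.11. The part of these markers in the results was not tested.

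The far end of the long arm of chromosome 12 is rich in genes that every dividing cell uses. It carries subunits of the anaphase-promoting complex (APC/C), the ubiquitin ligase that ends mitosis, the catalytic subunit of DNA polymerase epsilon, ribosomal proteins and the nuclear transport GTPase RAN. It also carries gene families that lie side by side, among them the OAS genes, whose enzymes sense double-stranded RNA and which are induced by interferon, and a cluster of zinc finger repressors with a KRAB domain close to the end of the chromosome.

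Unlike most of their neighbours, *OAS3* was called higher by limma, and *OAS1*, not called, had a positive fold change. *OAS1* passed the minimum mean only through the resistant group. The 250 bases before the start of *OAS1* and *OAS3* are shown here as RefSeq gives them on GRCh38.p14. Both lie on the plus strand, at chr12:112906712-112906961 and chr12:112938224-112938473. The starts used here are those of RefSeq. Gencode, which gave the other positions, starts *OAS1* at 112905856 and *OAS3* at 112938051, so both windows lie inside the genes as Gencode places them. Capitals mark the letters searched for as an interferon response element, GAAA, any 2 bases and GAAA again, on both strands.
OAS1: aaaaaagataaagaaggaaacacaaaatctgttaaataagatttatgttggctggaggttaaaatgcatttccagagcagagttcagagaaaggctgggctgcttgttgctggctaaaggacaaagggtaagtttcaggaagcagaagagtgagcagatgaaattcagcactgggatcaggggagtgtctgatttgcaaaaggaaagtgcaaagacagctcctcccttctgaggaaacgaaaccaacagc
OAS3: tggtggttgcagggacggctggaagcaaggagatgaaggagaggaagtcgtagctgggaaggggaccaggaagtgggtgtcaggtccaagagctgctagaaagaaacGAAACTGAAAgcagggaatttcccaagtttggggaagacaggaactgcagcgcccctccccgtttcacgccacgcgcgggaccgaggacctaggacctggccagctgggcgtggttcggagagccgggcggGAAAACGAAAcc
The *OAS3* window held 2 matches, at 143 to 134 and at 12 to 3 bases before the start, and the *OAS1* window held 0. Close to the gene start, the *OAS1* window does hold GAAA and GAAA with a single base between them. That spacing was not searched for and is not marked. Over all 35116 promoters of the table, 1061 (3.02%) held a match to the searched letters in 250 bases. Of the 173 members found among them, 4 did, and the others were *TXNRD1*, *NOPCHAP1* and *HIP1R*, all lower in resistant cells. A match is a description of letters, and its absence says only that they are not in this window.

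Most of the region was lower in resistant cells. The median log2 fold change of the 235 members was -0.57, with quartiles of -0.79 and -0.33, beside -0.00086 over all genes tested, and the median member stood at 67.4% of its parental mean. Below 0 were 209 members and above 0 were 26. By limma with Benjamini-Hochberg adjustment at 0.05, 165 members were lower, 4 were higher and 66 were not called, where 19.8% of all genes tested were lower and 17.8% higher. Every resistant library lay below every parental library for 172 members and above for 8, where the shares over all genes were 25.9% and 24.0%. Since the region was picked for this difference, these counts describe it and support nothing further.

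The differences were mostly moderate and alike in size. Of the members, 155 (66.0%) lay between -1 and -0.3, which held 19.3% of all genes tested. Since the region was picked for lower values, this share only describes it. The spread between the quartiles was 0.46 among members and 0.60 over all genes. Among genes with a mean of at least 500 it was 0.31 and 0.42. Under -1 lay 25 members, 17 of them in the right flank, 6 in the left flank and 2 in the stretch between them.

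**Figure D1:**
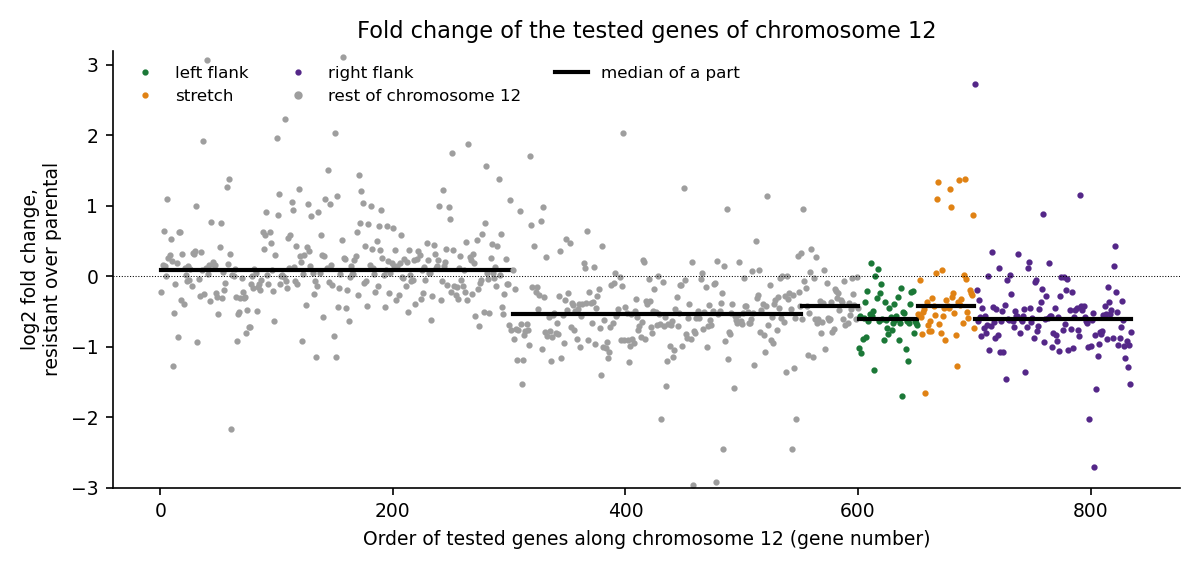
Log2 fold change of resistant over parental cells for each tested gene of chromosome 12, in order along the chromosome, with the left flank, the stretch and the right flank in colour, other genes in grey and the median of each part as a black line. The median lies at 0.09 before 51 Mb and at -0.61, -0.42 and -0.60 in the coloured parts, and 4 genes outside the axis, none of them a member, are not drawn.

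The same held in each library. Each gene's log2 value was set against its mean over the 6 libraries, and the median deviation over the members was 0.30, 0.28 and 0.30 in parental libraries 1, 2 and 3, and -0.28, -0.30 and -0.28 in resistant libraries 7, 8 and 9. No library of either group lay near the other group. Members summed to between 2.01% and 2.07% of all signal in the parental libraries and to between 1.41% and 1.44% in the resistant libraries. The median log2 SD within a group was 0.14 for members and 0.15 over all genes.

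**Figure D2:**
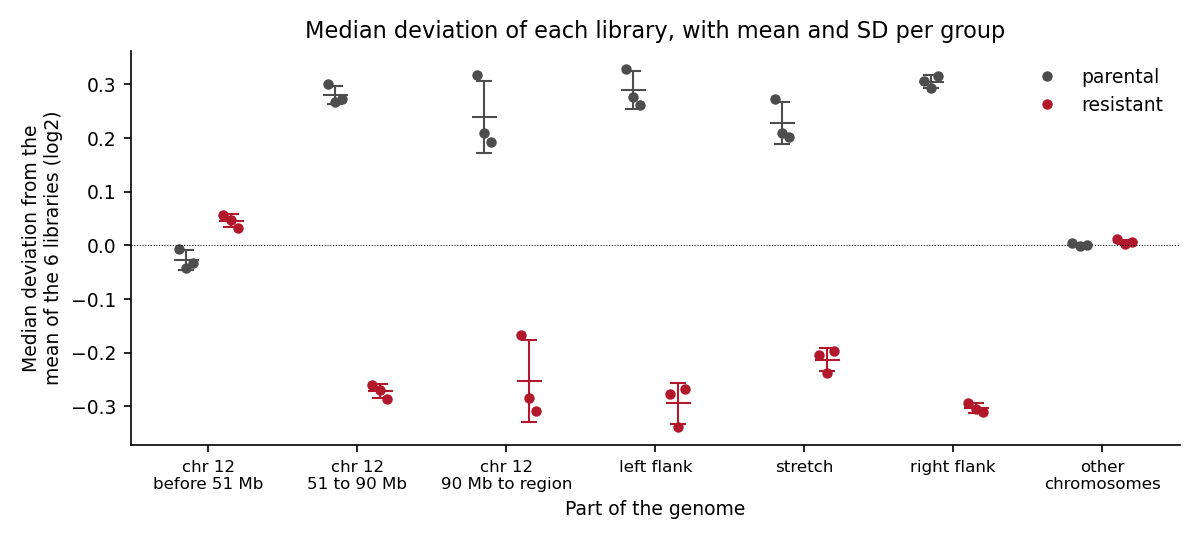
Median deviation (log2) of the genes of each part from their own mean over the 6 libraries, 1 point per library, with the mean and SD of each group. In the left flank, the stretch and the right flank all parental points lie above 0 and all resistant points below 0, and on other chromosomes both groups lie close to 0.

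The region is not the only part of chromosome 12 with such values. From 51 to 90 Mb the median of 249 genes was -0.53, with 148 lower, and from 90 Mb to the region it was -0.43 over 49 genes, with 27 lower. Before 51 Mb the median of 302 genes was 0.09, and on the other chromosomes it was 0.01 over 15512 genes. The genes just before the region were *PARPBP*, which restrains homologous recombination, at -0.61, the long non-coding RNA *HELLPAR* at -0.01 and *NT5DC3* at -0.44. Just inside it were *TTC41P* at -1.02, *HSP90B1* at -0.56 and *UQCC6* at -1.08. The medians of the 10 genes on each side of 103.8 Mb were -0.42 and -0.61, both below 0.

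The stretch from 110.3 to 117.2 Mb held 49 members, from *ANAPC7* to *FBXO21*, and its fold changes were smaller than those of its flanks. Its median was -0.42, with 29 lower, 3 higher and 17 not called, and its median member stood at 74.9% of the parental mean. The left flank of 51 members, from *TTC41P* to *ATP2A2*, had a median of -0.61 with 35 lower and 0 higher, of which the median member stood at 65.4%. The right flank of 135 members, from *NOS1* to *ZNF268*, had a median of -0.60 with 101 lower and 1 higher, and stood at 66.0%. In the stretch 39 of 49 members lay below 0, in the left flank 48 of 51 and in the right flank 122 of 135.

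The gap narrowed among abundant genes. With a mean of at least 500, a level chosen after the values were seen, the median of the stretch was -0.51 over 29 members, of which 26 were lower and 1 was higher, and that of both flanks was -0.61 over 114 members, of which 102 were lower and 0 higher. Under 500 the median of the stretch was -0.22 over 20 members, with 3 lower and 2 higher, and that of the flanks -0.57 over 72 members, with 34 lower and 1 higher. Over all genes tested under 500, 13.0% were lower and 18.3% higher. The quartiles of these 20 members of the stretch were 1.32 apart. The medians of stretch and flanks were closer among abundant members than among those of low level, whose values varied most. Over all genes tested with a mean of at least 500, 26.7% were lower and 17.4% higher.

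**Figure D3:**
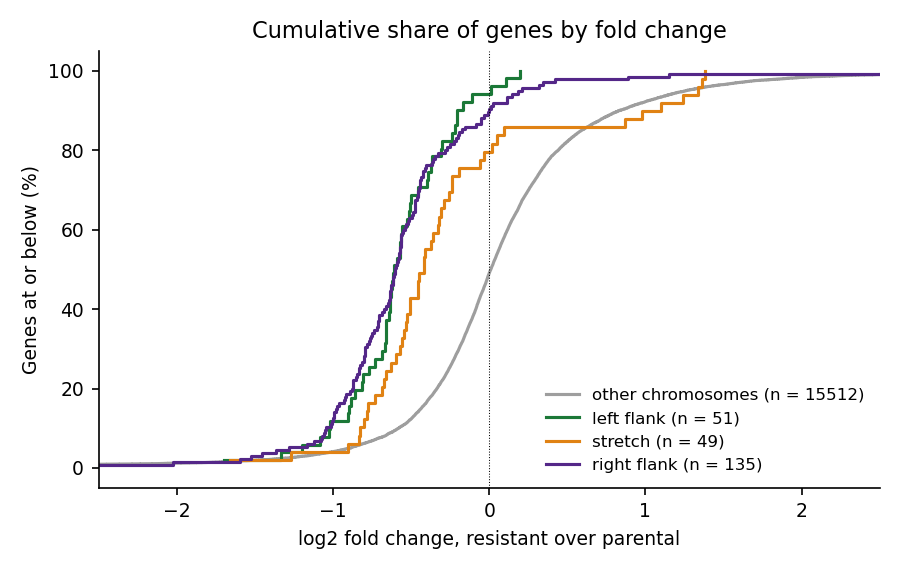
Cumulative share of genes (%) at or below each log2 fold change for the left flank, the stretch, the right flank and the other chromosomes. The curves of the flanks lie together with medians of -0.61 and -0.60, the stretch crosses 50% at -0.42, and the other chromosomes cross it at 0.01.

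In runs of 20 neighbouring members the median was -0.54, -0.61 and -0.64 over the first 3 runs, then -0.43 from *PPP1CC* to *OAS3* and -0.30 from *DTX1* to *FBXO21*. Over the next 5 runs it was between -0.61 and -0.51. The last 35 members, up to *ZNF268*, had a median of -0.79, the lowest of all runs, and 28 of them were lower. The run from *DTX1* spans the widest gap of the stretch, 1.27 Mb without a tested gene between *TBX3* and *MED13L*, and the last run follows soon after a gap of 3.12 Mb before *TMEM132C*.

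The values at the borders of the stretch were mixed. Before its start lay *IFT81* at -0.64, ENSG00000289311 at -0.66 and *ATP2A2* at -0.68, and after it *ANAPC7* at -0.53, ENSG00000258210 at -0.06 and *ARPC3* at -0.57. The medians of the 10 members on each side were -0.65 and -0.55. Before its end lay *FBXW8* at -0.26, *TESC* at 0.87 and *FBXO21* at -0.73, and after it *NOS1* at 2.74, *KSR2* at -0.20 and *RFC5* at -0.63, where the 10-gene medians were -0.22 and -0.57.

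The ubiquitin ligases of mitosis lie on both sides of the border. Of 14 genes listed for mitosis and the cell cycle, 13 passed the minimum, 10 were lower, 0 higher and 3 not called, with a median of -0.60. The list also holds *ULK1*, *TCTN1* and *RHOF*, which are not known mainly for mitosis. Its counts and those of the lists that follow stand beside 70.2% of all members lower and 1.70% higher, with a median of -0.57. *ANAPC5*, a scaffold subunit of the APC/C in the right flank, was at 3379, 3747 and 3536 in parental and at 2395, 2254 and 2373 in resistant libraries (log2 fold change -0.60, SE 0.07). *ANAPC7*, a subunit of its arm that binds the activators, lies in the stretch and was at 2964, 2562 and 3048 against 2011, 2004 and 1889 (-0.53, SE 0.08). The groups did not overlap for either gene.

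The other subunits of the complex lie elsewhere in the genome and were not used to choose the region. Of these 14 genes of the APC/C, 3 were lower, 1 higher and 10 not called by limma, with a median of -0.05, where 19.8% of all genes tested were lower and 17.8% higher. *ANAPC15* on chromosome 11 was lower at -0.63 (adjusted p = 0.0018), *ANAPC11* on chromosome 17, its catalytic RING subunit, at -0.44 (adjusted p = 0.0055) and *FZR1* on chromosome 19, an activator, at -0.34 (adjusted p = 0.0089). *CDC16* on chromosome 13 was higher at 0.24 (adjusted p = 0.043). The activator *CDC20* was at 0.01.

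Among the other genes of mitosis, *CHFR*, a ubiquitin ligase of an early mitotic checkpoint, was at 1107, 1233 and 1215 in parental and 835, 732 and 753 in resistant libraries (-0.62, SE 0.09). *RAN*, the GTPase of nuclear transport and spindle assembly, was at 19842, 18721 and 19312 against 11189, 10358 and 11314 (-0.82, SE 0.06). *PPP1CC*, a catalytic subunit of protein phosphatase 1, was at 7039, 6742 and 6540 against 3793, 4036 and 4014 (-0.78, SE 0.06). In these 3 genes each resistant library was below each parental library. *CDK2AP1*, an inhibitor of CDK2, had a fold change of -1.06, and *MPHOSPH9*, a centriole protein, one of -0.83.

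The members of this list that were not called differ in kind. *KNTC1*, which encodes a subunit of the RZZ complex of the kinetochore, was at 1795, 1922 and 1828 in parental and at 5501, 1608 and 4553 in resistant libraries 7, 8 and 9. Libraries 7 and 9 were high and library 8 lay just under the parental range, so the groups overlapped (0.89, SE 0.35), and without library 8 the fold change was 1.44 and the gene was called higher. *CIT*, the citron kinase of cytokinesis, was at 1783, 1493 and 1758 against 1770, 1654 and 1630 (0.01, SE 0.09), and the resistant range lay inside the parental one. Its sign turned when the libraries were rescaled on genes outside chromosome 12, and without parental library 2 or resistant library 7. *RHOF* was low and scattered, between 65.2 and 132 over the 6 libraries.

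Of the genes listed for DNA replication and repair, 6 of 7 were lower, with a median of -0.66, beside 70.2% of all members. *POLE*, the catalytic subunit of DNA polymerase epsilon, was at 6332, 6245 and 6887 in parental and 4761, 4699 and 4209 in resistant libraries (-0.51, SE 0.07). *RFC5*, a subunit of the clamp loader, was at 2318, 2230 and 2345 against 1477, 1469 and 1496 (-0.63, SE 0.06). The groups were apart in both. The base excision repair glycosylases *UNG* and *TDG*, which share the left flank, were at -0.66 and -0.88, and *ALKBH2*, which reverses alkylation of DNA, was at -0.90. *KMT5A*, a histone H4 methyltransferase, was at -0.76. *GTF2H3*, a subunit of TFIIH, was not called, at 789.5, 839.7 and 833 against 841, 517 and 810.4, where only library 8 was low.

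Of the chromatin and transcription genes listed, 8 of 12 were lower and 0 higher, with a median of -0.43, beside 70.2% of all members lower. *SETD1B*, a histone H3 lysine methyltransferase, was at -0.65, *KDM2B*, a histone demethylase, at -0.57 and *BCL7A*, a subunit of the SWI/SNF remodelling complex, at -0.87. *MED13L*, a subunit of the Mediator kinase module, was at 3001, 3055 and 3045 in parental and 3219, 3348 and 2697 in resistant libraries (0.02, SE 0.08). *EP400*, a chromatin remodelling ATPase, was at 4526, 4841 and 4926 against 4510, 4696 and 3713 (-0.15, SE 0.09), and *MLXIP*, a glucose-responsive factor, had a fold change of -0.08. For these 3 genes the groups overlapped, although each had a mean above 500, where 128 of the 143 members were lower, 1 was higher and 14 were not called. *NFYB* was not called at -0.36, and without library 7 it was called lower at -0.54.

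All 13 members listed for the ribosome, translation and ribosome assembly were lower, with a median of -0.57 and fold changes from -0.89 for *PUS1*, a pseudouridine synthase, to -0.42 for *RPL6*. *RPLP0*, the stalk protein of the large ribosomal subunit, was the most abundant member per kilobase of its longest transcript, at 18529 in parental and 11876 in resistant cells. It was at 48324, 48177 and 47526 in parental and 32032, 28726 and 31553 in resistant libraries (-0.64, SE 0.06). *DENR*, a factor of reinitiation and ribosome recycling, was at -0.61, *EIF2B1*, a subunit of the exchange factor of eIF2, at -0.75 and *GCN1*, an activator of the kinase GCN2, at -0.44. The call of *DDX54* at -0.52 was lost without parental library 1, without resistant library 7 and in limma without the trend. *RPS2P5*, a processed copy of *RPS2* whose reads may be shared with other copies, was at -0.74.

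Of 13 genes listed as mitochondrial 12 passed, and 8 were lower, 1 higher and 3 not called, with a median of -0.71. The list is not complete, and *SLC8B1*, described further down and called higher, is not in it. *COX6A1*, a subunit of cytochrome c oxidase, was at 8281, 9530 and 9228 in parental and 4289, 3775 and 4782 in resistant libraries (-1.08, SE 0.09). *PGAM5*, a phosphatase of the outer membrane, was at -0.87, *DIABLO*, which binds inhibitors of apoptosis, at -0.78 and *MMAB*, an enzyme of cobalamin metabolism, at -1.03. The list also holds *TXNRD1*, a thioredoxin reductase found mainly in the cytosol, at -0.86, and without it 7 of 11 were lower, with a median of -0.63. Not called were *COQ5* at -0.05, *ACAD10* at 0.05 and the sirtuin *SIRT4* at -0.83, which is of low level.

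The member of this list that was higher is *ALDH2*, the mitochondrial aldehyde dehydrogenase that clears acetaldehyde. It was at 1506, 1799 and 1376 in parental and 4363, 3590 and 3858 in resistant libraries (1.34, SE 0.11). Every resistant library was far above every parental library. It was the single abundant member to be called higher, and it overlaps ENSG00000257767, a gene on the same strand with a mean of 52.2, so some reads may be shared.

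**Figure D4:**
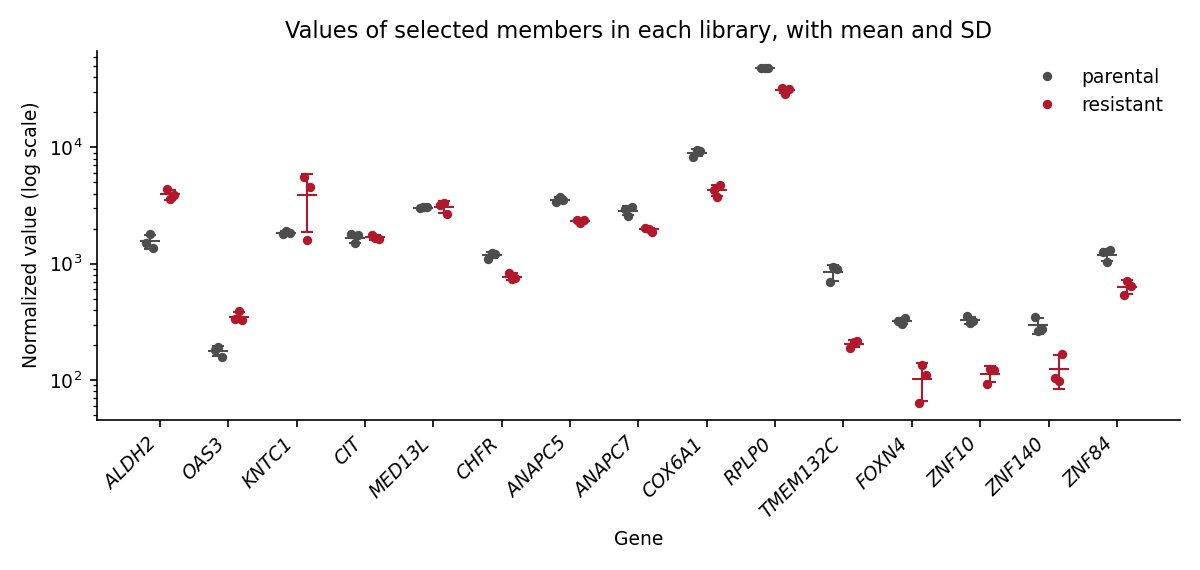
Normalized values (log axis) of 15 members in each library, with the mean and SD of each group. The parental points lie above the resistant points for most genes, *ALDH2* and *OAS3* are the other way round, and *KNTC1*, *CIT* and *MED13L* overlap.

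Membrane traffic and cytoskeleton genes were lower in 13 of 15 cases, with a median of -0.57. *TMED2*, a cargo receptor between the endoplasmic reticulum and the Golgi apparatus, was at 8710, 7636 and 8278 in parental and 4116, 3570 and 4274 in resistant libraries (-1.04, SE 0.08), the largest difference of this list. The endosomal genes *VPS29*, *VPS33A* and *VPS37B* were at -0.46, -0.71 and -0.60, the syntaxin *STX2* at -0.79 and *ARPC3*, a subunit of the actin-nucleating Arp2/3 complex, at -0.57. The neighbours *RILPL1* and *RILPL2* were not called, at -0.20 and -0.01. The calls of *HIP1R*, *GOLGA3* and *CKAP4*, all of them between -0.35 and -0.28, were each lost under at least 1 other setting.

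Signalling genes gave 10 lower, 0 higher and 4 not called of 14 that passed, of 15 listed, with a median of -0.45. *PTPN11*, the phosphatase SHP2 that passes on growth factor signals, was at 5985, 5465 and 5590 in parental and 4278, 4384 and 3831 in resistant libraries (-0.45, SE 0.07). *PEBP1*, an inhibitor of RAF, was at 8006, 7166 and 7436 against 4227, 4049 and 4295 (-0.85, SE 0.06). *ATP2A2*, the calcium pump of the endoplasmic reticulum, was at 20375, 18899 and 18719 against 12466, 11200 and 12432 (-0.68, SE 0.07). Again no library of one group reached the other. *CAMKK2* and *MAPKAPK5* were both at -0.80. Among those not called, the purinergic receptor *P2RX4* was at 0.32 and the kinase *NUAK1* at 0.01, and *SH2B3* at -0.31, although called lower, lost its call under several other settings.

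Of 12 neural and developmental genes listed 7 passed, and 6 were lower and 1 was higher. *TMEM132D* and *NOS1* among them passed the minimum mean only through the group where they are high, so these counts carry no weight. *TMEM132C* was at 689, 943 and 906 in parental and 189.8, 211 and 215 in resistant libraries (-2.03, SE 0.14). Its relative *TMEM132D* was at 21.9, 20.6 and 14.7 against 0.954, 2.22 and 3.45 (-2.70, SE 0.52), where the resistant values were at or near the limit of 3 reads. Both were low in all 3 resistant libraries. *FZD10*, a Wnt receptor, was at -1.59, *RIMBP2*, a protein of presynaptic active zones, at -1.12, *CUX2*, a cortical transcription factor, at -0.63 and *TBX3*, a T-box repressor, at -0.66.

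Some of the most negative members lie outside these lists. *FOXN4*, a transcription factor of retinal and neural progenitors, was at 323, 301 and 340.3 in parental and 63.8, 136 and 109.5 in resistant libraries (-1.70, SE 0.25). *NRAV*, a long non-coding RNA known as a negative regulator of antiviral responses, was at 232, 157 and 231 against 78.5, 56.4 and 90.3 (-1.45, SE 0.23), and it overlaps *SRSF9* on the same strand and *DYNLL1* on the opposite strand. *C12orf75* was at -1.33 and *MORN3* at -1.36, the latter at low means and with a call that was lost under 4 other settings. *MORN3* passed the minimum mean only through the parental group, with a mean of 26.1 in parental and 9.34 in resistant cells, so its call carries no weight.

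The zinc finger genes at the end of the chromosome were all lower, 7 of 7, with a median of -0.995, and the median member stood at 49.3% of its parental mean. *ZNF10* was at 352, 307 and 320.4 in parental and 92.9, 125 and 122 in resistant libraries (-1.52, SE 0.16). *ZNF140* was at 350.0, 263 and 274 against 105, 97.3 and 169 (-1.28, SE 0.22), and *ZNF84* at 1249, 1024 and 1300 against 538, 711 and 648 (-0.91, SE 0.13). In all 3 the groups were apart. *ZNF605*, *ZNF26*, *ZNF891* and *ZNF268* were at -0.995, -1.16, -0.97 and -0.79. *ZNF268* lost its call without parental library 1, without resistant library 8 and in limma without the trend. These genes encode repressors with similar finger repeats, so reads may be split between copies.

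The genes listed as interferon-stimulated went in both directions. Of 6 listed, *OAS2* and *OASL* were at 0 in all libraries. *OAS3* was at 182, 192 and 159 in parental and 337, 391 and 325 in resistant libraries (0.98, SE 0.14), and *OAS1* at 5.85, 15.1 and 6.74 against 19.2, 32.8 and 15.5 (1.24, SE 0.48), which did not pass the test (adjusted p = 0.065 by limma), although every resistant library was above every parental library. Without parental library 2 it was called higher at 1.62. *OAS1* passed the minimum mean only through the resistant group, with a mean of 9.23 in parental and 22.5 in resistant cells. Its separation and this call therefore carry no weight. *TRAFD1*, a negative regulator of innate signalling, was at 2153, 1858 and 1976 against 1095, 999 and 1095 (-0.91, SE 0.08), and *SLC15A4*, an endolysosomal peptide transporter, was at -0.99. The list had 2 lower, 1 higher and 1 not called. It also holds *SLC15A4*, which is known mainly as a transporter, and both OAS genes that passed the minimum had positive fold changes.

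Besides *ALDH2* and *OAS3*, the members called higher were of low level. *NOS1*, the neuronal nitric oxide synthase and first gene of the right flank, was at 1.93, 0 and 5.97 in parental and 21.1, 25.3 and 9.36 in resistant libraries, with a fitted log2 fold change of 2.74 (SE 0.75) that rests on few reads. *SLC8B1*, the mitochondrial sodium-calcium exchanger, was at 13.3, 9.07 and 24.6 against 45.9, 39.4 and 32.0 (1.36, SE 0.40). Its call was lost without parental library 1 or 2 and without resistant library 7 or 8. Without library 7 *NOS1* fell under the minimum mean, and the members called higher were then 2. Of the 26 members above 0, 20 had a mean under 500 and 10 lay in the stretch.

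**Figure D5:**
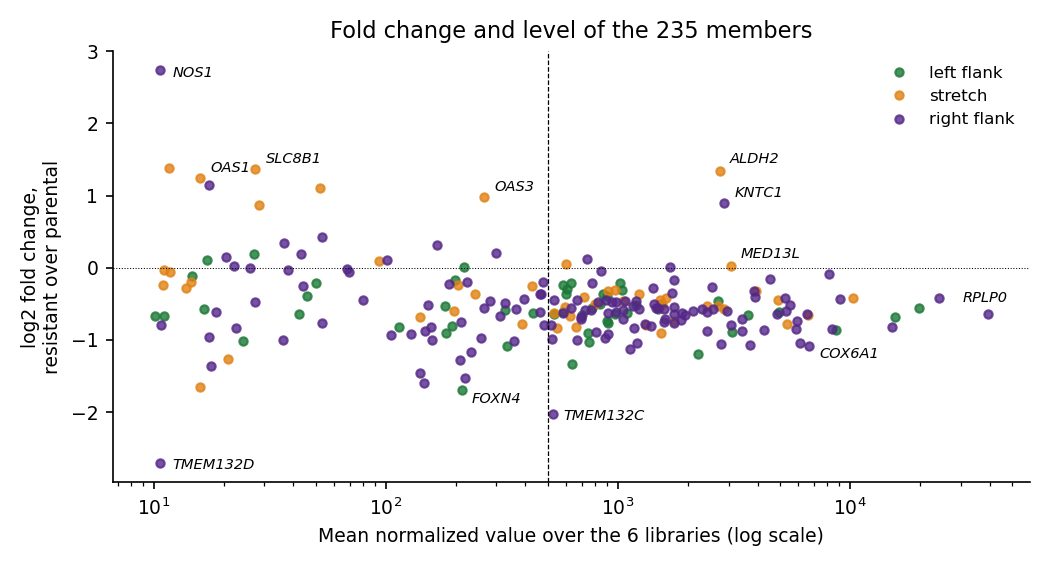
Log2 fold change of each of the 235 members against its mean normalized value over the 6 libraries (log axis), coloured by flank and stretch, with a dashed line at 500. Right of the line the points have a median of -0.58 and quartiles of -0.76 and -0.44, with *TMEM132C* lowest at -2.03 and *ALDH2* highest at 1.34, and left of it they spread from -2.70 to 2.74.

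Another abundant member had a difference of the usual size. *HSP90B1*, the HSP90 chaperone of the endoplasmic reticulum, was at 26216, 22142 and 22927 in parental and 16131, 15550 and 16616 in resistant libraries (-0.56, SE 0.07). It was lower in every resistant library. Per kilobase of the longest transcript, parental levels among the highest after *RPLP0* were 11751 for *COX6A1*, 8426 for *RPS2P5*, 7798 for *RAN* and 5849 for *RPL6*.

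Other properties of the members were set beside their fold changes. The median member had a mean level of 722, where the median over all genes tested was 504. There were 204 protein-coding genes, with a median of -0.57, and 31 others, also with a median of -0.57 but with quartiles 0.80 apart. Across members, which are neighbours and not independent, the log2 fold change had a Spearman correlation of 0.12 with GC content, 0.08 with transcript length and -0.15 with the mean level. Over all genes tested these correlations were -0.02, 0.06 and -0.18. With members split into 3 bins of 78 or 79 genes by GC content, from low to high, the median was -0.61, -0.58 and -0.48. For length it was -0.62, -0.57 and -0.55. By level it was -0.46, -0.58 and -0.60, and the spread between the quartiles narrowed from 0.83 to 0.33 and 0.31. Of the members 87 overlap a tested gene on the opposite strand, 23 overlap 1 on the same strand only and 125 overlap none, and since strand was not stated for the counting, reads of overlapping genes cannot be told apart.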

How the data were processed

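RNA from 3 parental and 3 resistant libraries of H526 cells was sequenced as paired ends. Per the submitters' processing notes and the methods, the authors trimmed reads with Trimmomatic 0.38, aligned and counted them with RSEM 1.3.1 (STAR is also named) on GRCh38 with Gencode v43, and normalized gene counts with DESeq2 1.30.0. The deposited values are this normalized signal per gene and library, with libraries kept apart. They are not counts, so no count test was run: from the value of 1 read per library, between 43.4% and 60.1% of values under 20 were whole within 0.05 reads. That value gave an estimate of the depth and a limit of 3 reads (2.67 to 2.93 in parental, 3.12 to 3.22 in resistant libraries), which covers counting error only.

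The table had 62757 rows, of which 47 second copies of pseudoautosomal genes, identical to the first, were left out. Positions and symbols came from Gencode v44 for 62639 of the other 62710. Genes with a mean of at least 10 (16347) were log2-transformed after adding 1 and fitted in limma 3.58.1 under R 4.3.3 (lmFit, then eBayes with a trend), condition being the only term, and adjusted by Benjamini-Hochberg over all of them at 0.05. A fold change on this scale understates the change of low genes. The limma step was tested on simulated data. Tables used Python 3.11.15 with pandas 2.3.3 and numpy 2.4.6, and figures matplotlib 3.10.9.

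The members and the gene lists were chosen with earlier results of these data known. Genes named are list members, the 8 largest positive and 8 largest negative fold changes among members whose groups do not overlap, the 8 highest means, 3 genes on each side of each border and of the minimum mean. Others named, such as ENSG00000257767, *SRSF9*, *DTX1*, *NOPCHAP1* and the APC/C genes outside the region, were added as context. Alternatives were pseudocounts of 0.1 and 10, no minimum mean, a minimum mean of 50, quantile normalization, rescaling on genes outside chromosome 12, limma without the trend, borders of the stretch moved by 1 Mb and each library left out. The split at a mean of 500 was added after seeing the data. Exact permutation of 3 against 3 libraries cannot go below 0.10 and was not used. Some genes that the rule names are not reported here.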

Additional observations from a re-analysis of the deposited data

How the results depend on the processing

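The median log2 fold change was below 0 in the region, both flanks and the stretch under every alternative run. Without a minimum mean it was -0.45 over the region, -0.51 in the left flank, -0.33 in the stretch and -0.48 in the right flank. It was -0.55 over the region and -0.57 in the right flank with quantile normalization, -0.56 in the left and -0.58 in the right flank with a pseudocount of 10, and -0.61 in the right flank when rescaled on genes outside chromosome 12. In the stretch it was -0.48 with a minimum mean of 50 and -0.51 with a mean of at least 500, a split chosen after seeing the data. With each library left out in turn it ran from -0.59 to -0.56 over the region, from -0.61 to -0.58 in the left flank, from -0.47 to -0.42 in the stretch and from -0.63 to -0.59 in the right flank. Members called lower were then between 148 and 156 and members called higher between 2 and 5, the 2 being without resistant library 7, and with a minimum mean of 50 the higher ones were 2. The cause of these shifts was not tested beyond the number of genes and libraries that each setting leaves.

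Of 1576 pairs of a named gene and an alternative, 1508 kept direction and call, 41 lost the call in the same direction, 7 gained it and 20 changed sign. The 12 genes that lost a call were *SH2B3*, *ZNF268*, *ORAI1*, *TCTN1*, *SBNO1*, *ACADS*, *MORN3*, *GOLGA3*, *DDX54*, *HIP1R*, *CKAP4* and *SLC8B1*. None of the 10 genes that changed sign had been called. With each library left out in turn, *ACAD10* ran from -0.12 to 0.14, *CIT* from -0.072 to 0.056, *COQ5* from -0.095 to 0.010, ENSG00000258210 from -0.23 to 0.071, *GTF2H3* from -0.34 to 0.0090, *MED13L* from -0.042 to 0.11, *NUAK1* from -0.25 to 0.17, *RHOF* from -0.16 to 0.34 and *RILPL2* from -0.094 to 0.094. With quantile normalization *MLXIP* was at 0.020, *NUAK1* at -0.025 and *RHOF* at -0.028, and when rescaled outside chromosome 12 *CIT* was at -0.0023 and *NUAK1* at -0.00296. The cause was not tested.

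No paired analysis was possible because the groups carry the numbers 1 to 3 and 7 to 9 and share none, and although the samples are described as matched, no source used here says which go together. A pairing by the order of the numbers was not run. Depth limits members near the minimum mean, such as *NOS1* and *TMEM132D*, whose lower group lay at or near 3 reads.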
